A study of Mus musculus with 16 samples.

Results

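Transcripts of glycolysis, pyruvate use and the pentose phosphate pathway were followed in mouse oocytes that lacked Hdac1, Hdac2 or both. The set holds 37 genes, listed by symbol: glucose and monocarboxylate carriers, the glycolytic enzymes, lactate dehydrogenase, the enzymes that tune phosphofructokinase, pyruvate dehydrogenase with its kinases, and enzymes of the pentose phosphate pathway. A gene was measured where the platform annotation gave a probe set to that gene alone, and where it had several the brightest on average stood for it. This held for 32 of the 37 genes, out of 18820 genes measured in the series. Gpi1, Eno1, Pfkfb1 and G6pdx were matched to no such probe set and Pdha1 shared its probe sets with another gene, so these 5 were not analysed here.

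The 4 genotypes were wild type, Hdac1 conditional knockout, Hdac2 conditional knockout and Hdac1/2 conditional double knockout, each with 4 arrays, labelled as biological replicates. All mice had the C57BL/6 strain background and were 12 days old, and RNA of 80 oocytes from ovaries was pooled for each array. Deletion used conditional alleles together with a Zp3-Cre transgene, which is active in growing oocytes and not in the somatic cells of the follicle, so by design the surrounding granulosa cells keep both genes. Whether the wild-type mice carried unrecombined alleles or the transgene is not stated in the labels used here. RNA was amplified before hybridisation to Affymetrix Mouse 1.1 ST arrays, on which a probe set of several short probes gives 1 signal value for a transcript, taken here as log2.

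HDAC1 and HDAC2 remove acetyl groups from histones and other proteins within shared co-repressor complexes. Glycolysis turns glucose into pyruvate, which lactate dehydrogenase can reduce to lactate or pyruvate dehydrogenase can pass to the mitochondria, while the pentose phosphate pathway branches off after the hexokinase step and supplies NADPH and ribose. Growing mouse oocytes are known for taking up glucose poorly and for relying on pyruvate that granulosa cells make and deliver.

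Hdac1 signal was 9.28 ± 0.05 (SD, n = 4) in wild type, 6.61 ± 0.19 without Hdac1, 9.64 ± 0.11 without Hdac2 and 7.66 ± 0.10 without both. The Hdac2 probe set read between 10.87 and 11.13 in the 4 group means, with differences from wild type of -0.10 without Hdac2 (adjusted p = 0.33) and -0.21 without both (adjusted p = 0.00274), small beside the fall of Hdac1, and which exons it reads is not stated in the labels used here. All 14 oocyte markers lay above 5.27, the median brightness of the probe sets tested, in their mean over arrays. In the double knockout 1 of the 14 rose, Sohlh1 by 1.08, and 3 fell, Figla by 0.56, Ddx4 by 0.32 and Kit by 0.17. This is a called share of 28.6%, against 58.5% of all genes at or above the median brightness. Of the 12 measured granulosa markers, 10 lay under that median. Among the 12, 3 rose and 2 fell in the double knockout, a called share of 41.7% against 38.4% of all genes. The changes of the 12 ran from -1.07 to 0.74, and 4 of those called were 1.4-fold or more. That 38.4% is not matched for brightness. It includes the brighter genes, called at 58.5%, so dim genes were called less often than 38.4%. The log2 of the summed granulosa signal was 9.49 to 9.57 in double-knockout arrays against 10.09 to 10.22 in wild type. The bright marker Nr5a2 made up most of that sum and fell by 1.07 in the double knockout. The mean of the 12 log2 signals did not fall, at 4.85 to 5.03 there against 4.74 to 4.92 in wild type. All 10 theca and stroma markers were dim, with summed log2 signal of 7.22 to 7.29 in wild type and 7.29 to 7.33 in the double knockout, where Acta2 rose by 0.31 (adjusted p = 0.0144). Of 9 blood, immune and endothelial markers 7 were dim, and the summed log2 signal was 8.84 to 9.01 in wild type and 8.01 to 8.28 in the double knockout, where Pecam1 fell by 1.37 and Cd68, a macrophage marker, rose by 0.38 (adjusted p = 0.0283). The called shares were 10% for theca and stroma and 22.2% for blood, immune and endothelial markers. The same 38.4% of all genes is again not matched for the dim signal of these lists. The part of these marker shifts in the results on metabolic genes was not tested, and in pooled oocytes fewer cells of a type and less RNA per cell cannot be told apart.

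The double knockout changed 18 of the 32 measured genes, 12 upward and 6 downward, in a limma model of all arrays with Benjamini-Hochberg adjusted p under 0.05 over all probe sets tested. Ldha, the muscle-type lactate dehydrogenase subunit, rose most, 3.93-fold, followed by the glucose transporter gene Slc2a1 at 2.93-fold and the hexokinase gene Hk2 at 1.95-fold. The steepest falls were those of Slc5a8, a sodium-coupled carrier of lactate and pyruvate, 3.08-fold lower, of the transketolase-like gene Tktl2, 2.69-fold lower, and of Pfkfb3, which makes the activator of phosphofructokinase, 2.38-fold lower. The called share of 56.2% stood beside 38.4% of all genes in the same comparison. Brightness bore on that comparison: of the 22 metabolic genes at or above the median brightness 13 were called, 59.1%, against 58.5% of the genes of the array that were as bright. By direction, 37.5% of the metabolic genes rose where 17.6% of all genes did, and 18.8% fell where 20.8% of all genes did. These shares are not matched for brightness. Of the 22 brighter metabolic genes 36.4% rose and 22.7% fell, and the shares by direction of genes as bright were not counted. The median log2 change of the 32 was 0.14 and the median of its size 0.34, against -0.02 and 0.147 over all genes. Of the 18 called genes, 12 differed by 1.4-fold or more, a limit named in the study's design text. All 4 double-knockout arrays lay beyond all 4 wild-type arrays for 17 of the 32 genes, 10 above and 7 below, or 53.1% against 36.0% of all genes, again not matched for brightness. With each array centred on its median, a scaling that moved the median change of all probe sets tested from -0.01 to -0.10, 9 of the metabolic genes rose and 8 fell.

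**Figure D1:**
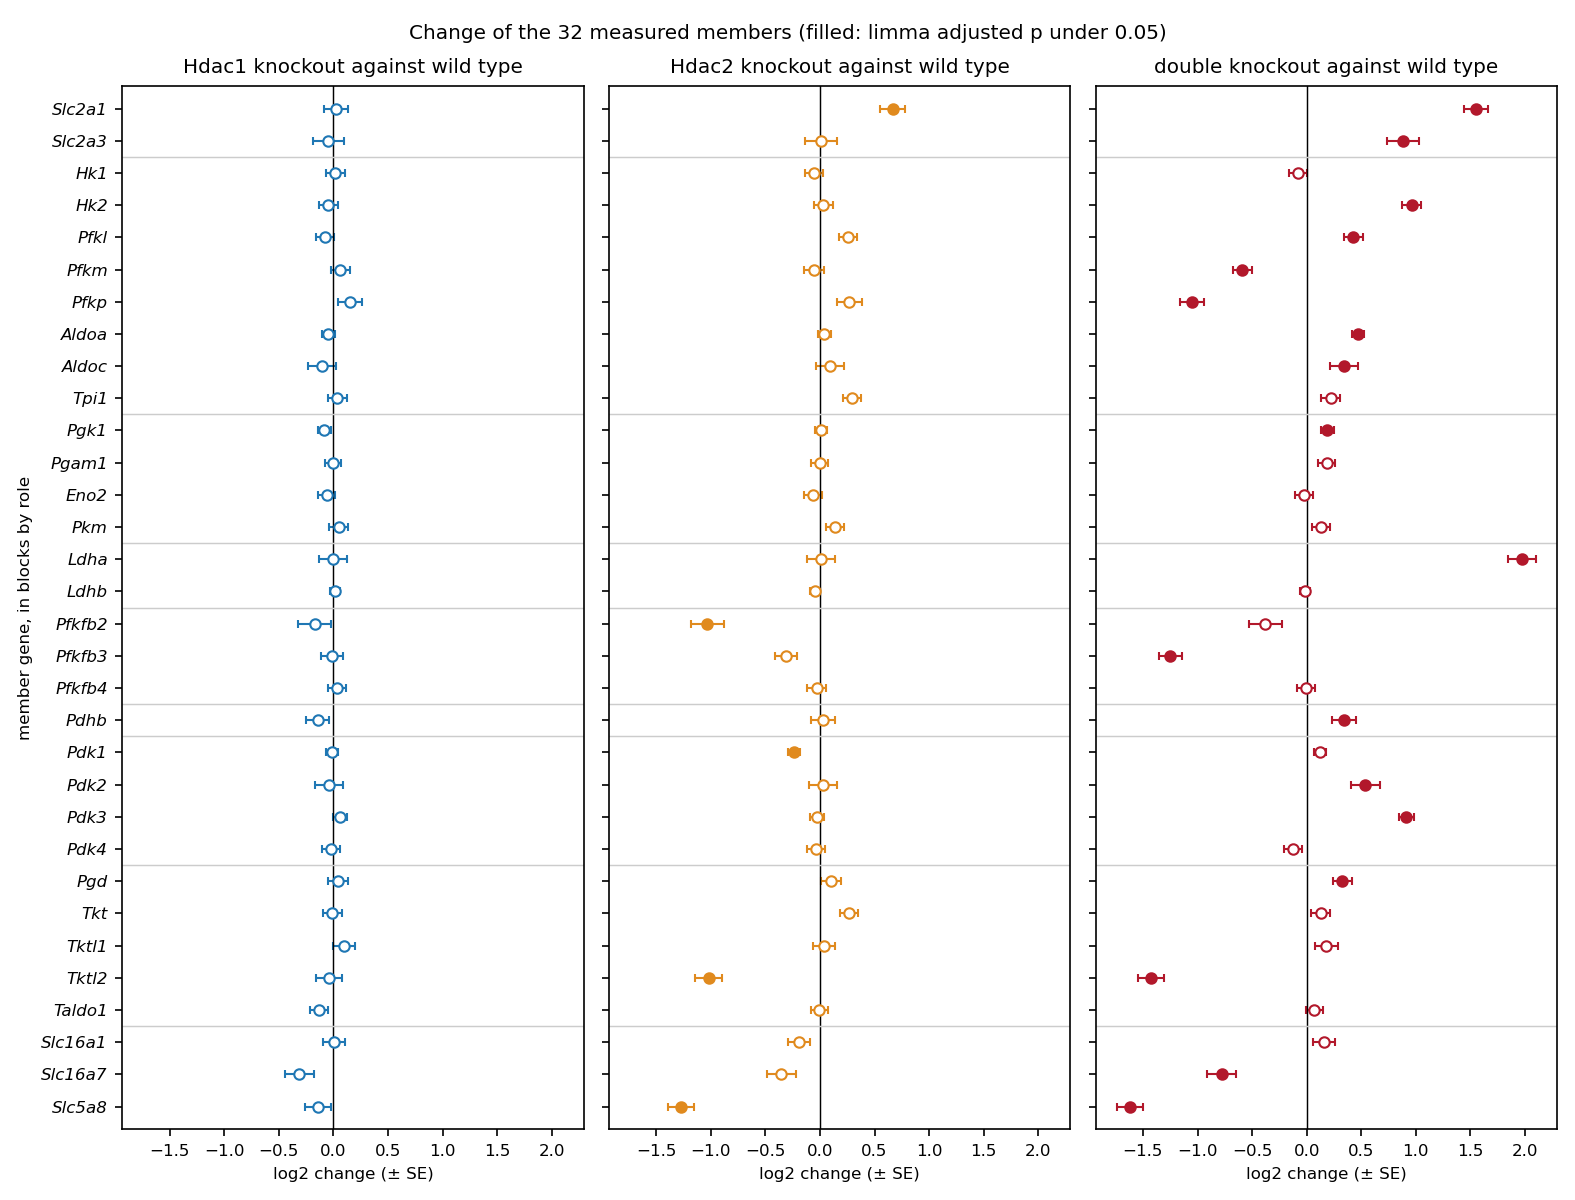
Log2 change against wild type (horizontal axis, points with SE from limma) of the 32 measured genes in the Hdac1 knockout, the Hdac2 knockout and the double knockout, in blocks by role from glucose uptake at the top to monocarboxylate transport at the bottom, with filled points for changes called at an adjusted p under 0.05. Filled points number 0, 5 and 18 from left to right, and in the double knockout they span from -1.62 for Slc5a8 to 1.97 for Ldha.

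The regions just before the transcription start are shown for the 3 genes that rose most and the 3 that fell most among those with an entry in the RefSeq promoter table (GRCm38.p6) so that the sequence beside the largest differences can be read. Each line gives the 250 bases ahead of the first listed start, 5′ to 3′ on the gene's strand. Capitals mark matches, on either strand, to CACGTG (the E-box), to ACGTG (the core bound by hypoxia-inducible factors, which overlaps every E-box), to GGGCGG (the GC box), to CCAAT or to TATAAA.
Ldha, chr7:46845554-46845803, plus strand: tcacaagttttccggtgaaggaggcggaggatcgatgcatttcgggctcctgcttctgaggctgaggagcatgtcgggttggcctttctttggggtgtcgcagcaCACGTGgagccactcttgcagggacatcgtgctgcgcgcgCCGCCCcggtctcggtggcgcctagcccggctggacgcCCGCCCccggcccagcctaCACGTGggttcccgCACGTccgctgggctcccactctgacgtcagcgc
Slc2a1, chr4:119108495-119108744, plus strand: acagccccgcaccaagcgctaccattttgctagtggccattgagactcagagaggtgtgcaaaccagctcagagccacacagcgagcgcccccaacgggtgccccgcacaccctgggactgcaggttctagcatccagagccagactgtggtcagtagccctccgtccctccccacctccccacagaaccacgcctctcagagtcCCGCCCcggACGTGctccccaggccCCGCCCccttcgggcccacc
Hk2, chr6:82774455-82774704, minus strand: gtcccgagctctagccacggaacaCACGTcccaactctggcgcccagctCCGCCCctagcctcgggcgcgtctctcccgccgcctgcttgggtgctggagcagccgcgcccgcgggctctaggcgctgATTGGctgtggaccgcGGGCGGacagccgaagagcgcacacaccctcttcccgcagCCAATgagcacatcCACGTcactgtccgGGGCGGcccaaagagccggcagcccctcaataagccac
Slc5a8, chr10:88885742-88885991, plus strand: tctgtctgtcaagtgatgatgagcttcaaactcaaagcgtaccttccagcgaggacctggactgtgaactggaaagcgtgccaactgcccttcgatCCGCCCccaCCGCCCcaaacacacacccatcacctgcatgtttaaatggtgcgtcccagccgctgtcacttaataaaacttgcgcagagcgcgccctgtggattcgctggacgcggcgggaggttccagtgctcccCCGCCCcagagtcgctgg
Tktl2, chr8:66511490-66511739, plus strand: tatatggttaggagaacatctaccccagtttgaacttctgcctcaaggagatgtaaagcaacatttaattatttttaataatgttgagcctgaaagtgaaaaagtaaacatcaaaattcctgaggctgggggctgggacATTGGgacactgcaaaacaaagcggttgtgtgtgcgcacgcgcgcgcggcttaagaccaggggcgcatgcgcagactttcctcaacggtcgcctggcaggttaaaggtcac
Pfkfb3, chr2:11553930-11554179, minus strand: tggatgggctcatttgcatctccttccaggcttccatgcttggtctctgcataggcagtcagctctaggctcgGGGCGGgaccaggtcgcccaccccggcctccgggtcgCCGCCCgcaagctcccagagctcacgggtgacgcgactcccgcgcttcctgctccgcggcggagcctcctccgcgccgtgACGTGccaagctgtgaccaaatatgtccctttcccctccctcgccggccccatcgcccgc

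In these windows Ldha held 25 CG dinucleotides, 2 E-boxes, 5 ACGTG matches and 2 GC boxes. An E-box reads the same on both strands, so each of its sites gives 2 of the ACGTG matches and is not a further site. Slc2a1 had 13 CG dinucleotides, 1 ACGTG match and 2 GC boxes. Hk2 showed 25 CG dinucleotides, 2 ACGTG matches, 3 GC boxes and 2 CCAAT matches. Among the falling genes, Slc5a8 held 17 CG dinucleotides and 3 GC boxes, Tktl2 11 CG dinucleotides and 1 CCAAT match, and Pfkfb3 24 CG dinucleotides, 1 ACGTG match and 2 GC boxes. Ldha and Pfkfb3 each have a second listed start, whose window is not shown and differs. For Ldha it held 9 CG dinucleotides and 0 matches to any of these motifs. For Pfkfb3 it held 14 CG dinucleotides, 1 E-box, 2 ACGTG matches and 2 GC boxes. Over the 30 measured genes with a window, where the first listed start was used, ACGTG occurred in 12 (40%), the E-box in 5 (16.7%), the GC box in 20 (66.7%), CCAAT in 14 (46.7%) and TATAAA in 1 (3.33%). Among all 32851 windows of the table, these motifs occurred in 16.6%, 6.02%, 32.7%, 33.8% and 12.4%. The whole table counts further listed starts of a gene too and was not matched for CG dinucleotides, so these shares are not like for like. ACGTG stood in 7 of the 11 windows of genes that rose, 2 of the 5 of genes that fell and 3 of the 14 of genes without a call. The median number of CG dinucleotides was 15 over the 30 windows and 6 over the whole table. It was 18 for genes that rose, 16 for genes that fell and 13.5 for genes without a call. ACGTG itself holds a CG, so its counts and those of CG dinucleotides are not independent. A match describes the letters alone, and binding was not measured.

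Glucose uptake was represented by Slc2a1 and Slc2a3, which encode facilitative glucose transporters, and both rose in the double knockout. Slc2a1 (probe set 10507594), whose promoter has the fewest CG dinucleotides of the rising trio shown, read 8.83, 8.53, 8.73 and 8.76 in wild-type arrays, 8.43, 9.01, 8.76 and 8.74 without Hdac1, 9.50, 9.25, 9.34 and 9.42 without Hdac2, and 10.47, 10.16, 10.37 and 10.05 without both. Its arrays formed 3 levels, with the Hdac2 knockout above wild type and the double knockout above both, and only the Hdac1-knockout and wild-type arrays overlapped. The log2 change was 1.55 ± 0.11 (SE, n = 4 and 4; adjusted p = 1.75e-08) in the double knockout and 0.66 ± 0.11 (adjusted p = 0.00245) in the Hdac2 knockout. Slc2a3 (probe set 10547641) was dim, at 3.47, 3.53, 3.53 and 3.61 in wild-type arrays, 3.65, 3.31, 3.51 and 3.47 without Hdac1, 3.48, 3.63, 3.42 and 3.65 without Hdac2, and 5.03, 4.11, 4.28 and 4.26 without both. The 4 double-knockout arrays stood above the 12 others, 1 of them well above its fellows. Slc2a3 rose by 0.88 ± 0.14 (SE; adjusted p = 0.000108), 1.85-fold.

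**Figure D2:**
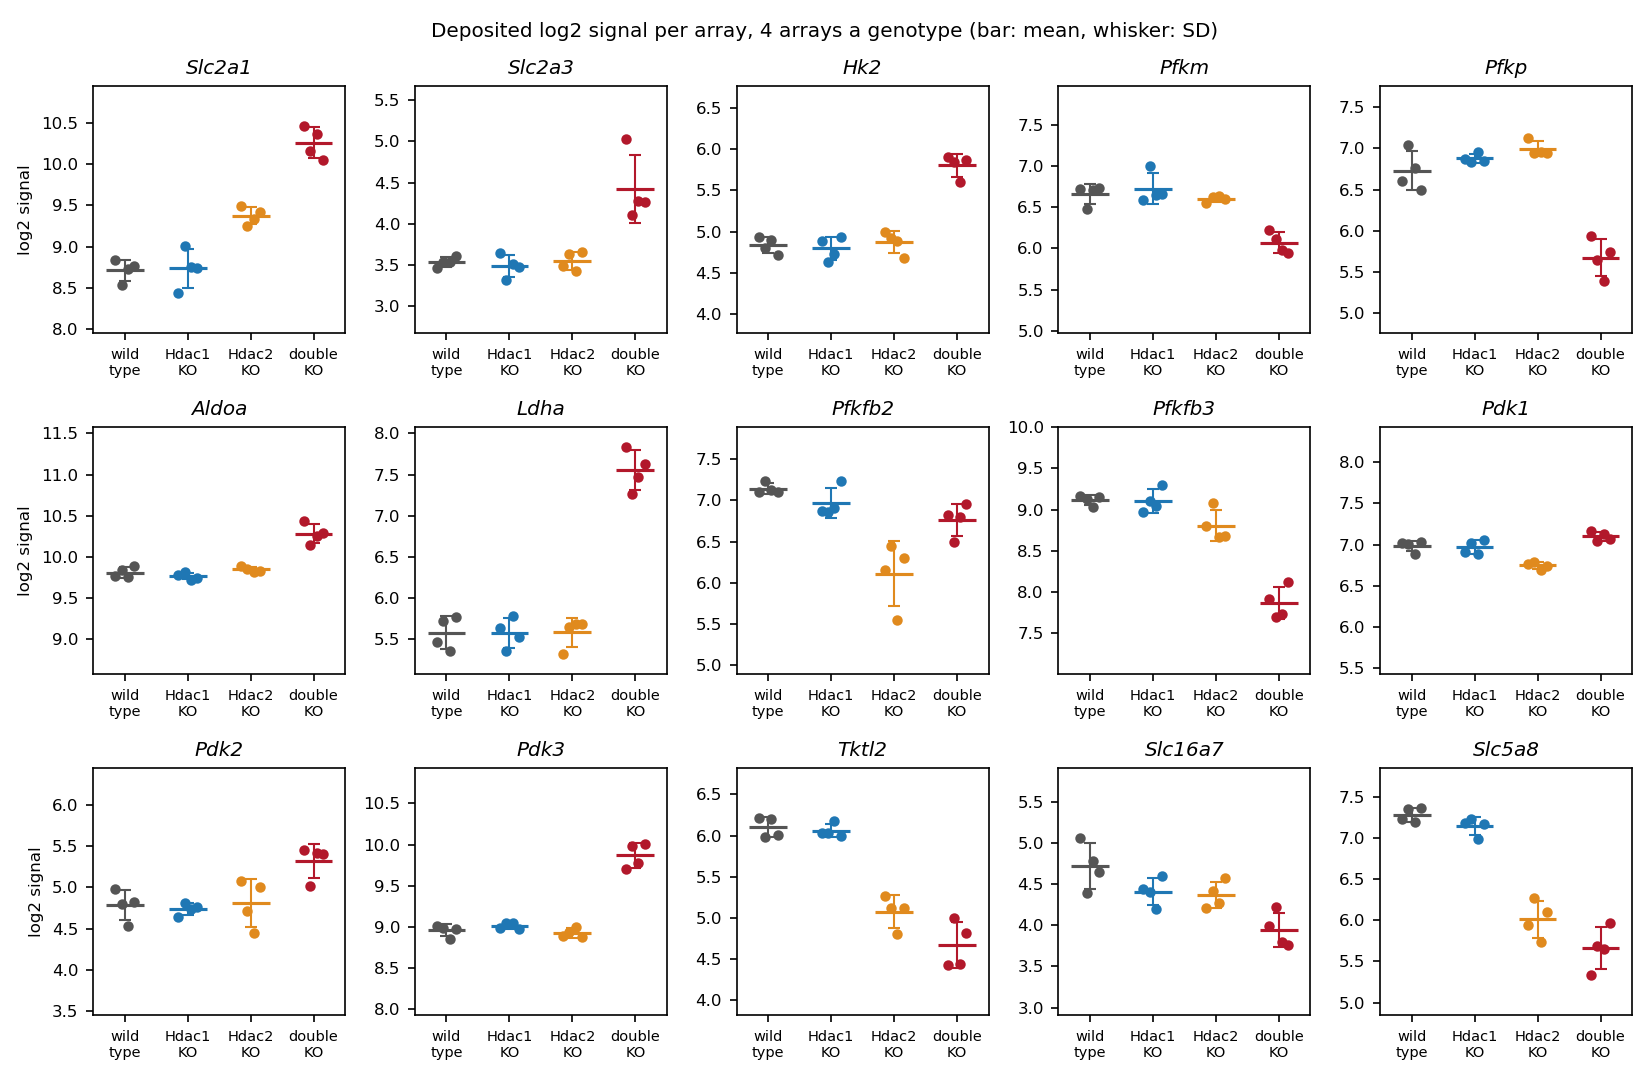
Log2 signal on each array (vertical axis, spanning 3 log2 units in every panel but starting at different levels) for 15 genes in the 4 genotypes, with points for arrays, bars for the mean and whiskers for the SD of 4 arrays. Ldha, Hk2, Slc2a3 and Pdk3 stand apart in the double knockout alone, Tktl2 and Slc5a8 are already low in the Hdac2 knockout, and Pfkfb2 is lowest in the Hdac2 knockout with the double knockout between it and wild type.

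In upper glycolysis, the steps from glucose to triose phosphate, 6 of 8 measured genes changed in the double knockout, 4 upward and 2 downward. In that comparison 38.4% of all genes were called. Counts by role, here and in the paragraphs below, cover too few genes to be read as a result about the role. Hexokinase traps glucose in the cell by phosphorylating it. Hk2 (probe set 10545588), the inducible hexokinase, read 4.94, 4.81, 4.90 and 4.72 in wild-type arrays, 4.88, 4.63, 4.73 and 4.94 without Hdac1, 5.0, 4.93, 4.88 and 4.68 without Hdac2, and 5.90, 5.84, 5.60 and 5.87 without both. The double-knockout arrays were all above the other 12, which overlapped one another, and the change was 0.96 ± 0.09 (SE; adjusted p = 2.36e-07), though the mean over all arrays lay under the median brightness. Hk1 stayed dim in all 4 genotypes, with group means of 3.72 to 3.82, and a change of -0.08 ± 0.08 (SE; adjusted p = 0.502) in the double knockout.

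The 3 phosphofructokinase genes, whose subunits form the enzyme of the main regulated step, changed in opposite directions. Pfkm (probe set 10426557), the muscle-type subunit, read 6.72, 6.48, 6.71 and 6.73 in wild-type arrays, 6.59, 7.001, 6.65 and 6.66 without Hdac1, 6.55, 6.63, 6.63 and 6.60 without Hdac2, and 6.22, 6.12, 5.99 and 5.94 without both. Pfkp (probe set 10407481), the platelet-type subunit, read 6.60, 7.05, 6.76 and 6.50 in wild-type arrays, 6.87, 6.84, 6.96 and 6.85 without Hdac1, 7.13, 6.95, 6.96 and 6.95 without Hdac2, and 5.93, 5.64, 5.39 and 5.74 without both. For both genes every double-knockout array lay below every other array. Pfkm fell by 0.59 ± 0.09 (SE; adjusted p = 4.63e-05) and Pfkp fell by 1.05 ± 0.11 (adjusted p = 1.33e-06). Pfkl, the liver-type subunit, had means of 5.91 in wild type, 5.83 without Hdac1, 6.17 without Hdac2 and 6.34 without both, where it rose by 0.43 ± 0.08 (SE; adjusted p = 0.000627). The difference Pfkl minus Pfkp, taken on each array, shifted by 1.48 in the double knockout, and Pfkl minus Pfkm by 1.02 (exact two-sided permutation p = 0.0286 each, unadjusted and the smallest that 4 against 4 arrays allow).

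Aldolase splits the sugar bisphosphate into trioses. Aldoa (probe set 10568050) read 9.76, 9.84, 9.75 and 9.89 in wild-type arrays, 9.78, 9.81, 9.72 and 9.75 without Hdac1, 9.89, 9.85, 9.82 and 9.84 without Hdac2, and 10.43, 10.15, 10.25 and 10.30 without both. The double-knockout arrays stood apart, above the rest, and the rise was 0.47 ± 0.06 (SE; adjusted p = 6.39e-06). RefSeq lists 2 pseudogenes of Aldoa, whose transcripts such probes may not tell from it. Aldoc, another aldolase, averaged 4.65 in wild type and 4.99 in the double knockout, a rise of 0.34 ± 0.13 (SE; adjusted p = 0.0438) whose arrays overlapped, at dim signal. Its call was lost in 9 of the 14 alternative fits that included it, which were those without wild-type replicate 2, 3 or 4 or double-knockout replicate 3 and those with array centring, quantile normalization, only the compared groups, array weights or the replicate block (adjusted p from 0.0235 to 0.162 over all alternatives). Tpi1, triose phosphate isomerase, missed the threshold at 0.22 ± 0.09 (SE; adjusted p = 0.0531), and it passed in 6 of the 15 alternative fits, with a range of 0.0208 to 0.232 over all alternatives. Its other, less bright probe set changed by 0.09 (adjusted p = 0.513).

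In lower glycolysis, from triose phosphate to pyruvate, 1 of the 4 measured genes rose. Pgk1, phosphoglycerate kinase (probe set 10399379), read 9.24, 9.29, 9.18 and 9.33 in wild-type arrays, 9.25, 9.13, 9.15 and 9.17 without Hdac1, 9.23, 9.29, 9.27 and 9.28 without Hdac2, and 9.49, 9.31, 9.57 and 9.41 without both. Double-knockout and wild-type arrays overlapped, by the lowest of the former and the highest of the latter. The rise was 0.19 ± 0.06 (SE; adjusted p = 0.0159), and it lost its call without wild-type replicate 3 (0.0539), without double-knockout replicate 3 (0.0619), with only the compared groups in the fit (0.0602) and with each array centred on its median (0.168, the highest of alternatives that began at 0.00394). A further Pgk1 probe set held the same values on all 16 arrays and another changed by 0.18 (adjusted p = 0.0192). RefSeq lists 2 pseudogenes of Pgk1, and whether each probe set reads the gene or such a copy was not tested. The other 3 genes had no call: phosphoglycerate mutase gene Pgam1 changed by 0.18 ± 0.08 (SE; adjusted p = 0.0695), pyruvate kinase gene Pkm by 0.13 ± 0.08 (adjusted p = 0.243) and enolase gene Eno2 by -0.02 ± 0.08 (adjusted p = 0.855). For Pgam1, which has 2 pseudogenes in RefSeq, another probe set passed with a change of 0.31 (adjusted p = 0.0383).

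Lactate dehydrogenase interconverts pyruvate and lactate, and its 2 main subunits parted. Ldha (probe set 10553301), whose first listed window is the richest in ACGTG of the 6 shown, read 5.46, 5.72, 5.36 and 5.77 in wild-type arrays, 5.64, 5.36, 5.79 and 5.53 without Hdac1, 5.32, 5.65, 5.68 and 5.68 without Hdac2, and 7.83, 7.26, 7.47 and 7.63 without both. The 3 groups other than the double knockout shared 1 range, and the double-knockout arrays began well above it. The rise of 1.97 ± 0.13 (SE; adjusted p = 4.73e-09) was the largest of the 32 genes, and RefSeq lists 3 pseudogenes of Ldha. Ldhb (probe set 10462035), the heart-type subunit, averaged 12.24 ± 0.04 (SD, n = 4) in wild type, 12.26 ± 0.04 without Hdac1, 12.20 ± 0.04 without Hdac2 and 12.23 ± 0.01 without both, a change of -0.01 ± 0.04 (SE; adjusted p = 0.87). The highest value anywhere in the table was 12.89, so Ldhb lay near the top of the scale. RefSeq lists 1 pseudogene of Ldhb, and whether this brightest probe set reads the gene or that copy was not tested. The other Ldhb probe set, at 11.71 in wild type, changed by 0.03 (adjusted p = 0.674). On each array, Ldha minus Ldhb shifted by 1.99 in the double knockout (exact two-sided permutation p = 0.0286, unadjusted) and by -0.02 and 0.05 in the Hdac1 and Hdac2 knockouts.

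The PFKFB enzymes make and break down the sugar phosphate that activates phosphofructokinase, and PFKFB3 is known as the isoform that favours making it. Pfkfb3 (probe set 10480035) read 9.16, 9.13, 9.03 and 9.15 in wild-type arrays, 8.96, 9.10, 9.05 and 9.30 without Hdac1, 8.80, 9.08, 8.67 and 8.68 without Hdac2, and 7.91, 7.70, 7.73 and 8.12 without both. All double-knockout arrays were below all others, and 3 of the 4 Hdac2-knockout arrays were below the wild-type range. Pfkfb3 fell by 1.25 ± 0.10 (SE; adjusted p = 8.3e-08) in the double knockout, while the Hdac2-knockout difference of -0.31 ± 0.10 missed the threshold (adjusted p = 0.097; 0.0292 without Hdac2-knockout replicate 2 and up to 0.229 in the other alternatives).

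Pfkfb2 (probe set 10357535), the heart-type isoform, had another order of genotypes. It read 7.11, 7.24, 7.13 and 7.10 in wild-type arrays, 6.87, 6.87, 6.91 and 7.24 without Hdac1, 6.15, 6.45, 5.55 and 6.30 without Hdac2, and 6.82, 6.50, 6.79 and 6.95 without both. The Hdac2-knockout arrays were the lowest, none overlapping the double knockout, whose arrays in turn lay under the wild-type range. Pfkfb2 fell by 1.03 ± 0.15 (SE; adjusted p = 0.000894) in the Hdac2 knockout, and it was 0.65 ± 0.15 higher in the double knockout than in the Hdac2 knockout (adjusted p = 0.0029). Against wild type the double-knockout difference was -0.38 ± 0.15 (adjusted p = 0.0612), which passed with arrays centred on their medians (0.0173) and with quantile normalization (0.0298), in a range of 0.00958 to 0.183 over all alternatives. Pfkfb2 minus Pfkfb3 shifted by -0.72 without Hdac2 and by 0.87 without both (exact two-sided permutation p = 0.0286 each, unadjusted). Pfkfb4 was dim, with a double-knockout change of -0.01 ± 0.08 (SE; adjusted p = 0.972).

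Pyruvate dehydrogenase commits pyruvate to oxidation, and the PDK kinases phosphorylate and inactivate it. Pdhb (probe set 10417538), its E1 beta subunit, read 8.26, 8.36, 8.26 and 8.34 in wild-type arrays, 8.14, 8.27, 8.19 and 8.04 without Hdac1, 8.31, 8.17, 8.29 and 8.56 without Hdac2, and 8.65, 8.39, 8.54 and 9.02 without both. The double-knockout arrays lay above the wild-type arrays by a narrow margin and overlapped the Hdac2 knockout. Pdhb rose by 0.35 ± 0.11 (SE; adjusted p = 0.0187), a call lost without double-knockout replicate 4 (0.062) and with arrays centred on their medians (0.0726), and as low as 0.0042 in other alternatives. Another Pdhb probe set, dim at 4.77 in wild type, changed by 0.28 (adjusted p = 0.0296).

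Among the 4 kinase genes 2 rose in the double knockout and 0 fell. Pdk3 (probe set 10605711) read 9.01, 8.98, 8.85 and 8.98 in wild-type arrays, 8.99, 9.04, 9.05 and 8.98 without Hdac1, 8.89, 8.94, 9.01 and 8.87 without Hdac2, and 9.71, 9.99, 9.78 and 10.01 without both. Every double-knockout array was far above the narrow shared range of the others, and Pdk3 rose by 0.91 ± 0.07 (SE; adjusted p = 2.19e-08). Pdk2 (probe set 10390103) read 4.98, 4.80, 4.53 and 4.82 in wild-type arrays, 4.64, 4.81, 4.74 and 4.76 without Hdac1, 5.08, 4.71, 4.45 and 5.01 without Hdac2, and 5.45, 5.02, 5.41 and 5.40 without both. Its double-knockout arrays were above all wild-type arrays but overlapped the Hdac2 knockout, with a rise of 0.54 ± 0.13 (SE; adjusted p = 0.00312) at dim signal.

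Pdk1 (probe set 10472846) read 7.01, 7.01, 6.89 and 7.03 in wild-type arrays, 6.91, 7.01, 6.88 and 7.06 without Hdac1, 6.77, 6.79, 6.69 and 6.74 without Hdac2, and 7.17, 7.05, 7.12 and 7.07 without both. The Hdac2-knockout arrays were the lowest of the 16 and the double-knockout arrays lay just above wild type. Pdk1 fell by 0.24 ± 0.05 (SE; adjusted p = 0.0181) in the Hdac2 knockout, a call lost without wild-type replicate 4 (0.0564) or Hdac2-knockout replicate 3 (0.0514) and at 0.00737 or more elsewhere, and its double-knockout change was 0.12 ± 0.05 (adjusted p = 0.0999). Pdk4, another kinase, at dim signal, changed by -0.12 ± 0.08 (SE; adjusted p = 0.268). On each array Pdk1 minus Pdk3 shifted by -0.79 in the double knockout (exact two-sided permutation p = 0.0286, unadjusted).

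In the pentose phosphate pathway 1 of the 5 measured genes rose in the double knockout and 1 fell. Pgd, phosphogluconate dehydrogenase, one of the enzymes that make NADPH, averaged 8.19 ± 0.19 (SD, n = 4) in wild type and 8.52 ± 0.14 in the double knockout, a rise of 0.33 ± 0.09 (SE; adjusted p = 0.00788) with overlapping arrays. Tktl2 (probe set 10572066), a relative of transketolase, read 6.21, 5.98, 6.20 and 6.00 in wild-type arrays, 6.03, 6.03, 6.17 and 6.00 without Hdac1, 5.27, 5.12, 4.80 and 5.11 without Hdac2, and 4.43, 4.99, 4.44 and 4.82 without both. The arrays fell into a high pair of genotypes and a low pair, and those of the Hdac2 and double knockouts overlapped. Tktl2 fell by 1.43 ± 0.12 (SE; adjusted p = 9.82e-08) in the double knockout and by 1.02 ± 0.12 (adjusted p = 0.000144) in the Hdac2 knockout. The enzymes that shuffle carbon in the same branch had no call: transketolase gene Tkt changed by 0.13 ± 0.09 (SE; adjusted p = 0.272), its relative Tktl1 by 0.18 ± 0.10 (adjusted p = 0.182) and transaldolase gene Taldo1 by 0.07 ± 0.08 (adjusted p = 0.538). Tkt minus Tktl2 shifted by 1.29 without Hdac2 and by 1.56 without both (exact two-sided permutation p = 0.0286 each, unadjusted).

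Of the 3 monocarboxylate carriers, which move lactate and pyruvate across membranes, 2 fell in the double knockout. Slc5a8 (probe set 10365640) read 7.23, 7.35, 7.19 and 7.36 in wild-type arrays, 7.18, 7.23, 6.99 and 7.17 without Hdac1, 5.94, 6.27, 5.73 and 6.10 without Hdac2, and 5.34, 5.68, 5.65 and 5.97 without both. As for Tktl2, the Hdac2 and double knockouts lay far under the other pair of genotypes and overlapped each other. Slc5a8 fell by 1.62 ± 0.12 (SE; adjusted p = 2.18e-08) in the double knockout and by 1.27 ± 0.12 (adjusted p = 1.41e-05) in the Hdac2 knockout. Slc16a7 (probe set 10372988), a proton-linked pyruvate carrier, read 5.06, 4.40, 4.78 and 4.65 in wild-type arrays, 4.44, 4.40, 4.20 and 4.60 without Hdac1, 4.21, 4.41, 4.28 and 4.57 without Hdac2, and 3.99, 4.22, 3.80 and 3.76 without both. Wild-type arrays were the most scattered, double-knockout arrays lay below all of them, and the fall was 0.78 ± 0.13 (SE; adjusted p = 0.000172), all at dim signal. Slc16a1, the widespread proton-linked carrier of lactate and pyruvate, changed by 0.16 ± 0.10 (SE; adjusted p = 0.259) against wild type and was 0.35 ± 0.10 higher in the double knockout than in the Hdac2 knockout (adjusted p = 0.0141; 0.0521 without double-knockout replicate 1). Slc16a1 minus Slc5a8 shifted by 1.08 without Hdac2 and by 1.78 without both (exact two-sided permutation p = 0.0286 each, unadjusted).

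Relatives within a family were compared on each array in this way for all 22 pairs of the 9 families with more than 1 measured gene. The shift against wild type reached the smallest possible exact p, 0.0286 unadjusted, for 16 pairs when both genes were lost, 8 when Hdac2 was lost and 1 when Hdac1 was lost. The single pair in the Hdac1 knockout was Pfkfb2 minus Pfkfb3, with a shift of -0.16. Pairs of 1 family share genes and some hold a dim gene, so these counts restate in part the calls of single genes and are no separate evidence.

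**Figure D3:**
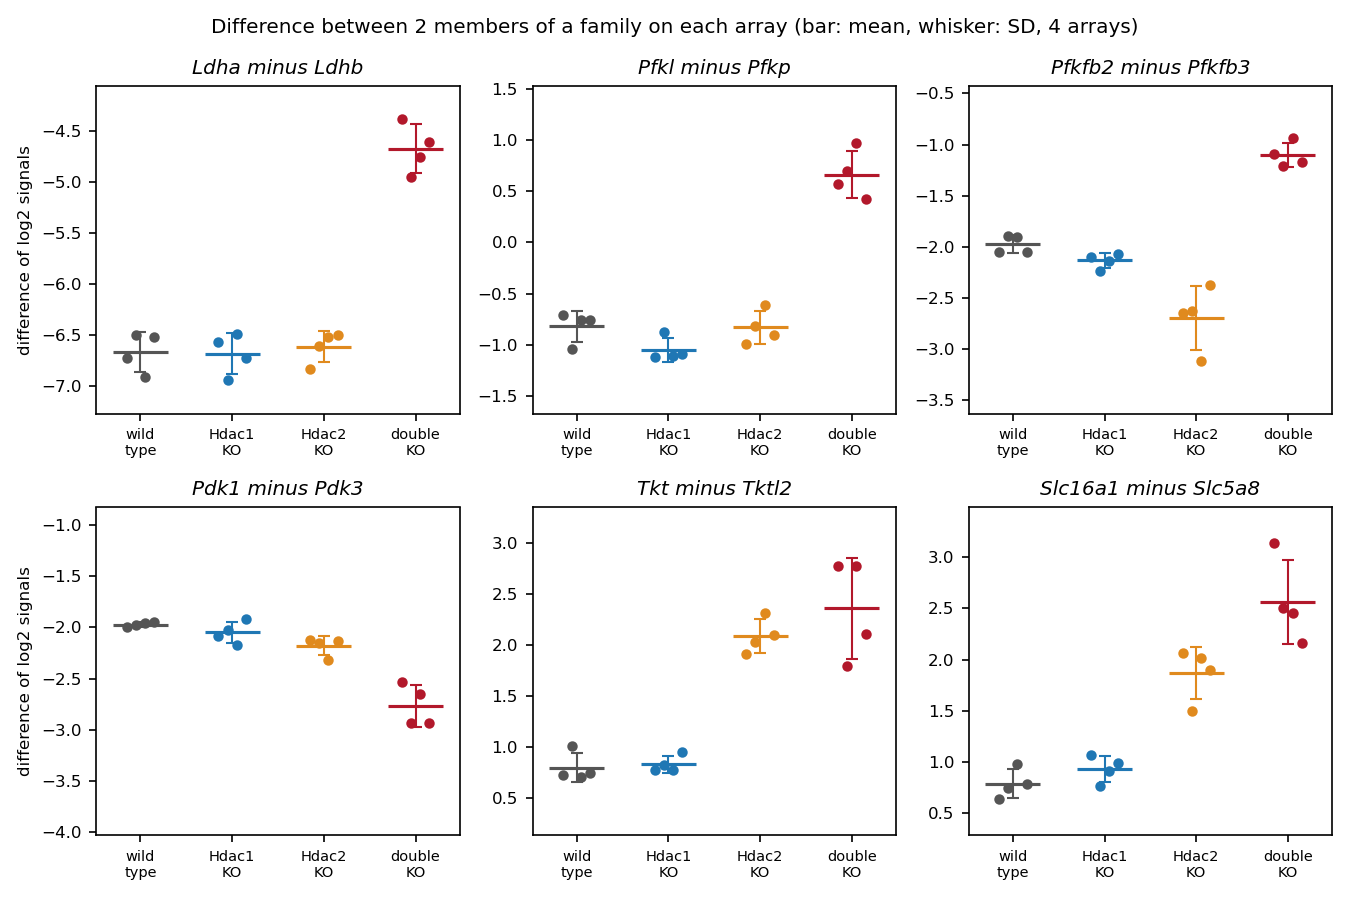
Difference between the log2 signals of 2 genes of a family on the same array (vertical axis, spanning the same number of log2 units in every panel), with points for arrays, bars for the mean and whiskers for the SD of 4 arrays a genotype. The height of a panel has no meaning because different probe sets are compared, and only shifts between genotypes can be read: Pfkfb2 minus Pfkfb3 lies below wild type in the Hdac2 knockout and above it in the double knockout, and Ldha minus Ldhb is shifted in the double knockout alone.

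Loss of Hdac1 alone changed 0 of the 32 genes. The lowest limma adjusted p was 0.512, for Slc16a7 with a difference of -0.31 ± 0.13 (SE), which was also the 1 gene with an unadjusted p under 0.05. The same count of 0 was obtained in all 15 alternative fits, and 0.0638% of all genes were called. The changes ran from -0.31 to 0.15, with a median size of 0.05.

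Loss of Hdac2 alone changed 5 of the 32 genes, 15.6%, against 5.84% of all genes. Among genes at or above the median brightness the shares were 22.7% of 22 and 9.72%. Slc2a1 rose 1.59-fold, and Slc5a8, Pfkfb2, Tktl2 and Pdk1 fell 2.42-fold, 2.04-fold, 2.03-fold and 1.18-fold. By direction 2.88% of all genes rose and 2.96% fell. The double-knockout changes of the same genes, against the same wild-type arrays, were 1.55 for Slc2a1, -1.62 for Slc5a8, -0.38 for Pfkfb2, -1.43 for Tktl2 and 0.12 for Pdk1. Hdac2-knockout and wild-type arrays did not overlap for 8 of the 32 genes, and the share of all genes with such separation was not counted here. Among the 8 were Tpi1, Tkt and Pfkl, higher without a call, at changes of 0.29, 0.27 and 0.26 (adjusted p = 0.0576, 0.0877 and 0.0962). Tpi1 passed in 5 of the 15 alternative fits, but its other, less bright probe set changed by 0.16 (adjusted p = 0.41). Chromosome 4, which carries Hdac1, also carries Slc2a1 and Pgd, and chromosome 10, which carries Hdac2, also carries Slc5a8, Slc16a7, Pfkl and Hk1. What strain DNA surrounds the conditional alleles is not stated in the labels used here, and its part in these results was not tested.

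Set against each other, the single knockouts differed for 6 of the 32 genes, where 6.02% of all genes differed. Pfkfb2, Tktl2, Slc5a8 and Pdk1 were higher in the Hdac1 than in the Hdac2 knockout, by 0.86, 0.98, 1.13 and 0.22, and Slc2a1 and Pfkl were lower, by log2 differences of -0.64 and -0.33 (adjusted p from 5.75e-05 to 0.0285). The calls of Pfkl and Pdk1 were each lost in 5 of the 8 fits that left out 1 array (adjusted p up to 0.0809 and 0.074), and that of Pdk1 also with only the compared groups (0.0665) and with the intensity trend (0.0681). Against the Hdac1 knockout, the double knockout differed for 18 genes, 12 higher and 6 lower, with a background of 38.9%. Against the Hdac2 knockout it also differed for 18, 12 higher and 6 lower, with a background of 33.9%. Slc5a8 and Tktl2 were lower still in the double than in the Hdac2 knockout, by log2 differences of -0.35 (adjusted p = 0.0335) and -0.41 (adjusted p = 0.0146). These calls were lost in 5 and 3 of the 8 fits that left out 1 array (adjusted p up to 0.119 for Slc5a8 and 0.055 for Tktl2) and with only the compared groups in the fit (0.103 and 0.0595).

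The interaction asks whether the log2 changes of the single knockouts, added together, give the change of the double knockout. It was called for 14 of the 32 genes, 11 positive and 3 negative, or 43.8% against 23.4% of all genes. Among the 22 at or above the median brightness it was called for 11, 50%, against 36.7%. Ldha departed most, by 1.97 ± 0.18 (SE; adjusted p = 1.14e-06), as neither single knockout moved it. Pfkp departed by -1.47 ± 0.16 (adjusted p = 6.03e-06), with both single-knockout differences above 0 at 0.15 and 0.27 and neither called. Positive departures of 0.83 for Pfkfb2 and 0.37 for Pdk1 belonged to genes that had fallen in the Hdac2 knockout and stood higher in the double knockout. Hk2 departed by 0.98, Slc2a3 by 0.92, Pdk3 by 0.88, Slc2a1 by 0.86 and Aldoa by 0.48, and Pfkfb3 and Pfkm departed by -0.93 and -0.60 (adjusted p from 6.25e-06 to 0.0101 over these 9 genes, Pfkfb2 and Pdk1 included). Departures of 0.55 for Pdk2, 0.47 for Pdhb and 0.27 for Pgk1 lost their calls in 11, 11 and 4 of the 16 fits that left out 1 array. The other, dim Pdhb probe set gave 0.08 (adjusted p = 0.748). Slc5a8 and Tktl2 had no call, at -0.21 ± 0.17 (SE; adjusted p = 0.434) and -0.37 ± 0.17 (adjusted p = 0.14).

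Neighbouring genes of the same metabolism were counted in 6 further lists for the double knockout against wild type. The called shares ran from 33.3% for other glycolytic enzymes to 71.4% for regulators of glycolytic genes. Of all genes 38.4% were called, and of those at or above the median brightness 58.5%. The lists are small and were not matched for brightness. Of 15 other glycolytic isozymes and side enzymes 2 rose and 3 fell, with a median log2 change of -0.09. Pgam2, the muscle-type phosphoglycerate mutase, rose by 1.19 ± 0.12 (SE; adjusted p = 7.53e-07), from a range of 3.98 to 4.18 to one of 5.07 to 5.69, and Fbp2, a fructose bisphosphatase that works against glycolysis, fell by 1.03 ± 0.12 (adjusted p = 2.96e-06). In pyruvate entry and the dehydrogenase complex 1 of 9 rose and 3 fell, with a median of -0.08. The riser was Pdp2, a phosphatase that reverses the action of the PDK kinases, by 1.21 ± 0.13 (SE; adjusted p = 1.19e-06), from a range of 5.93 to 6.10 to one of 6.97 to 7.44.

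Of 8 other pentose phosphate genes 3 rose and 1 fell, with a median of -0.06, and Prps1, which makes the activated ribose for nucleotide synthesis, rose by 1.30 ± 0.26 (SE; adjusted p = 0.000754) from scattered wild-type values of 6.20 to 7.04. Of 18 other hexose and monocarboxylate carriers or their chaperones 4 rose and 5 fell, with a median of -0.06, and Slc16a6 rose by 1.41 ± 0.22 (SE; adjusted p = 7.05e-05). In the citric acid cycle 6 of 17 rose and 3 fell, with a median of -0.003 and no change of 2-fold or more. Among 14 regulators of glycolytic genes 5 rose and 5 fell, with a median of -0.13. Epas1, a hypoxia-inducible factor, rose by 1.01 ± 0.13 (SE; adjusted p = 1.09e-05), and Esrrg, an orphan nuclear receptor, fell by 1.07 ± 0.18 (adjusted p = 0.000159).

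**Figure D4:**
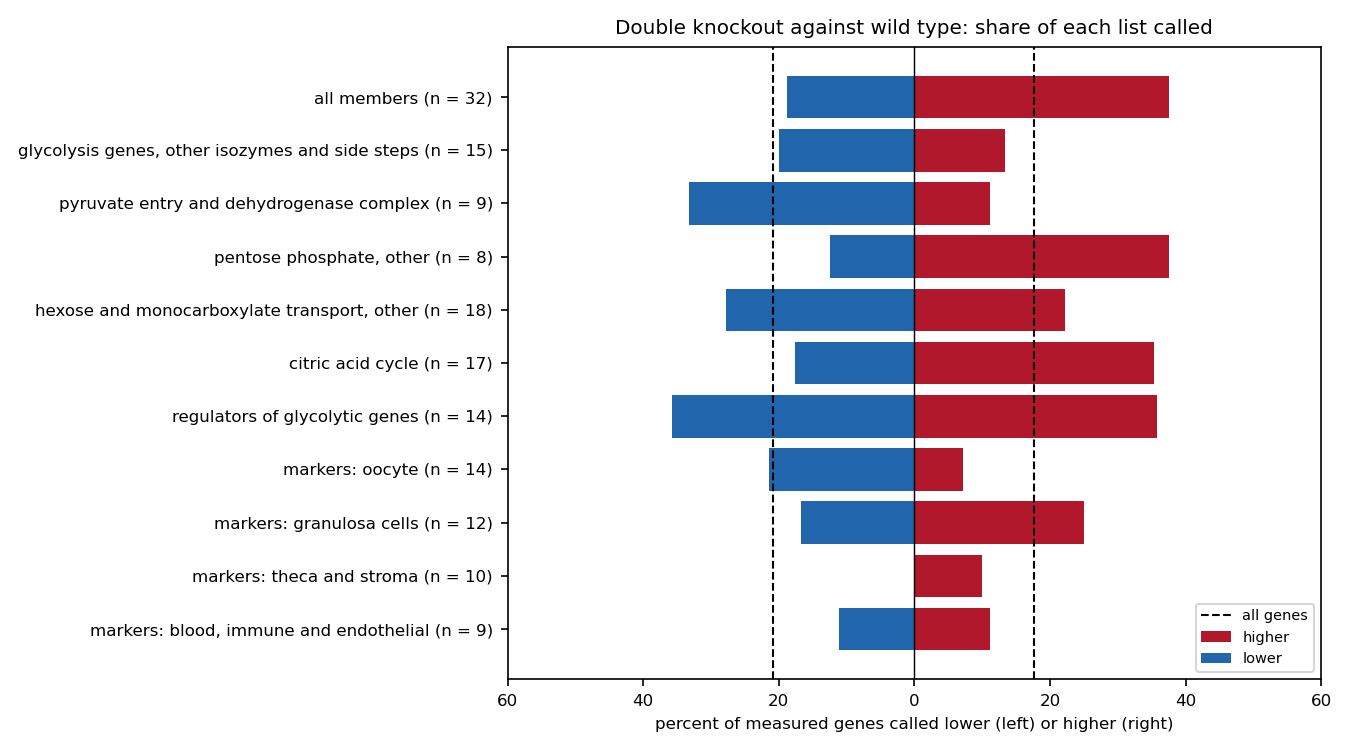
Share of measured genes called lower (left) or higher (right) in the double knockout against wild type, for the 32 metabolic genes, 6 further lists and 4 marker lists, with n for each list and dashed lines at the shares of all genes, 20.8% lower and 17.6% higher. The 32 genes reach 37.5% higher, beyond the dashed line, and 18.8% lower, just inside it. The dashed lines are not matched for brightness, and lists of 8 to 18 genes move by several percentage points with each gene.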

How the data were processed

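The deposited table holds 1 log2 value per probe set and array for 35556 probe sets. The base is not stated and was taken as log2 from the range of 2.07 to 12.89, on which all folds depend. Per the submitters' processing notes MAS5 was used, the design text adds GeneSpring v7, SAM, EASE and a 1.4-fold limit, and how the authors combined these is not stated there.

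Values were used as deposited. Genotype means were fitted over the 16 arrays with limma 3.58.1 in R 4.3.3 (lmFit, eBayes, 12 residual degrees of freedom) on the 21218 probe sets naming exactly 1 gene. P-values are two-sided, Benjamini-Hochberg adjusted over these, and called under 0.05. The code of the model was tried on simulated data with independent noise and few changed probe sets. The double knockout changed many more genes, so that trial does not show how the fit performs on these arrays. Labels call the arrays biological replicates, and their number limits the precision. Gene family shifts used exact permutation over the 70 arrangements of 4 against 4 arrays.

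The genes, lists, tests and alternatives were chosen with earlier results of these data known. Values in every array are printed for genes called in a single knockout, with a called interaction, or with a called double-knockout change of at least 0.5; genes of other lists are named where called with a change of at least 1, at most 4 a list, besides markers, which were picked after their values were seen. The alternatives were array centring, quantile normalization, leaving out dim probe sets, only the compared groups in the fit, an intensity trend with robust variance, array weights, replicate number as a block, and leaving out each array.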

Additional observations from a re-analysis of the deposited data

Results flagged for a closer look

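Array values far from the other 3 of their genotype were looked for in 128 groups of 4 arrays, and 9 were found, where chance gives about 1 in 20. In the Hdac1 knockout these were Hk1 in replicate 4 (4.014, others 3.733 to 3.765), Pfkm in replicate 2 (7.001, others 6.588 to 6.655) and Pfkfb2 in replicate 4 (7.238, others 6.865 to 6.914). In the Hdac2 knockout they were Pfkp in replicate 1 (7.131, others 6.945 to 6.961), Pkm in replicate 4 (10.123, others 10.244 to 10.253) and Ldha in replicate 1 (5.32, others 5.649 to 5.685). In wild type they were Pfkm in replicate 2 (6.48, others 6.709 to 6.728) and Pdk1 in replicate 3 (6.89, others 7.007 to 7.028), and in the double knockout Pdk2 in replicate 2 (5.017, others 5.403 to 5.453).

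The effect of losing Hdac1 differed with the state of Hdac2 for 14 genes, by limma's interaction term. The departure was positive for Ldha (1.97, adjusted p = 1.14e-06), Hk2 (0.98, 3.29e-05), Slc2a3 (0.92, 0.00348), Pdk3 (0.88, 6.25e-06), Slc2a1 (0.86, 0.000885), Pfkfb2 (0.83, 0.0101), Pdk2 (0.55, 0.0386), Aldoa (0.48, 0.0005), Pdhb (0.465, 0.0387), Pdk1 (0.37, 0.00211) and Pgk1 (0.27, 0.027). It was negative for Pfkp (-1.47, adjusted p = 6.03e-06), Pfkfb3 (-0.925, 0.000249) and Pfkm (-0.60, 0.00228).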

How the results depend on the processing

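No log2 change reversed its sign in any alternative for a result that was called. With the 1.4-fold limit added, the double knockout against the Hdac2 knockout gave 10 genes in place of 18. Of the 32 genes, 10 were dim, with a mean under 5.27, and had no value in the fit that left out dim probe sets. Calls that held in every alternative fit that included the gene numbered 4 of 5 for the Hdac2 knockout, 15 of 18 for the double knockout (Aldoc, Pgk1 and Pdhb being lost in some), 17 of 18 and 12 of 18 for the double against the Hdac1 and Hdac2 knockouts, 4 of 6 between the single knockouts and 11 of 14 for the interaction. Leaving out 1 array gave 4 to 6 calls for the Hdac2 knockout, 16 to 21 for the double knockout and 11 to 15 for the interaction. With the replicate number as a block (replicate block) the counts were 0, 6 and 18 for the Hdac1, Hdac2 and double knockouts and 14 for the interaction. Tpi1 was gained in the Hdac2 knockout (0.0279) and the double knockout (0.0208), where Aldoc was lost (0.0606). Over all probe sets tested, deviations of equal-numbered arrays correlated between -0.15 and 0.09. That shows little pairing over the whole array, but it cannot exclude an effect that equal numbers share for some genes. A pseudocount was not varied because the values are on a log scale. Dim signal limits these 10: Slc2a3, Hk1, Hk2, Aldoc, Eno2, Pfkfb4, Pdk2, Pdk4, Tktl1 and Slc16a7.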
